A study of Homo sapiens with 7 samples.

Results

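Semaphorins and plexins were followed in RL and JeKo-1, human B-cell lymphoma lines that the labels call mantle cell lymphoma (MCL) lines, after 6 h with a BTK inhibitor. The set holds 9 genes of the 22257 named in the deposited tables, 5 semaphorins (SEMA7A, SEMA4A, SEMA4B, SEMA4C and SEMA4D) and 4 plexins (PLXNA1, PLXNB2, PLXNC1 and PLXND1). The genes were picked by symbol with earlier results of these data known, and each is represented by its RefSeq transcript with the highest mean read count over the 7 libraries. Together the 9 genes have 16 transcripts in the tables, of 34917 in all. SEMA7A and PLXND1 moved most in RL. SEMA7A transcripts fell 9.14-fold in RL and 9.95-fold in JeKo-1, while PLXND1 rose in RL and did not pass the test in JeKo-1.

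The 4 groups were RL with BTK inhibitor (2 libraries), RL with no agent (2 libraries), JeKo-1 with BTK inhibitor (2 libraries) and JeKo-1 with no agent (1 library). The series title names the inhibitor as ibrutinib, a covalent inhibitor of Bruton tyrosine kinase (BTK), which relays signals from the B-cell receptor. No dose or vehicle is given for the treated or the untreated cells. Each line stands for the cells of 1 donor, and no label states that a group's libraries were grown as separate cultures. A p-value here thus measures no more than the scatter among the libraries at hand, and that scatter may be technical. Poly(A) or other RNA selection is not described beyond the TruSeq RNA kit, which was started from total RNA.

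Semaphorins are secreted or membrane-bound signalling proteins with a shared sema domain, and plexins are their main receptors. The plexin cytoplasmic part acts on small GTPases of the Rap and R-Ras families and so changes the cytoskeleton and integrin adhesion. Semaphorins were first described as axon guidance cues, and several of them, the immune semaphorins, also act between lymphocytes, antigen-presenting cells and stroma.

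SEMA7A and PLXND1 had the largest responses in RL, so the 250 bases in front of a RefSeq start of each gene are shown. The sequences are from RefSeq on GRCh38.p14, 5′ to 3′ on the gene's own strand. Both genes lie on the minus strand, the SEMA7A window at chr15:74433959-74434208 and the PLXND1 window at chr3:129606677-129606926. Capitals mark GC boxes (GGGCGG on either strand) and, in PLXND1, an EGR motif (GCGNGGGCG on either strand) that overlaps GC boxes.
SEMA7A: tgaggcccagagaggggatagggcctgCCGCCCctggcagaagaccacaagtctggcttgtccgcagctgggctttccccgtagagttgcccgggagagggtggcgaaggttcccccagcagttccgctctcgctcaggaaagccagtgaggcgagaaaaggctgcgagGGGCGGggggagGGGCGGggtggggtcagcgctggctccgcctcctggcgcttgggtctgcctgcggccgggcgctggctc
PLXND1: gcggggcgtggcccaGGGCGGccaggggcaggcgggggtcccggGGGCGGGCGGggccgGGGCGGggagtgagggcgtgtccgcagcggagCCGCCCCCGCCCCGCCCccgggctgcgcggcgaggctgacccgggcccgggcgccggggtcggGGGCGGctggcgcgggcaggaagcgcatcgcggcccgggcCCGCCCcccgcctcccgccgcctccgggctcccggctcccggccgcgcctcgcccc
The SEMA7A window shown holds 3 GC boxes and 70.0% G and C, and the PLXND1 window holds 9 GC boxes, 1 EGR match and 88.8% G and C. Of 35116 windows of the same length in front of RefSeq starts, 42.6% hold a GC box and 8.41% an EGR match, and the median G and C content is 58.0%. Neither window holds a match to AP-1 (TGANTCA, in 6.57% of windows), CRE (TGACGTCA, 1.65%), the E-box CACGTG (6.34%), NF-kB (9.96%) or the SRF CArG box (1.16%), each searched on both strands. Among the other members, the SEMA4C window holds a CRE match 40 bases before the start, the SEMA4D window an E-box 50 bases before it, and PLXNA1 an EGR match and 2 overlapping NF-kB matches. PLXNC1 has an AP-1 match 91 bases before the start in 1 of its windows, and SEMA4A and SEMA4B each have an NF-kB match in 1 window, 76 and 79 bases before the start. GC boxes in these windows are not listed. Another SEMA7A window, not shown, holds 4 GC boxes, 77.6% G and C and no match to the other motifs. A match is a run of letters in the window and was not tested as a binding site. The authors' reads were placed on another build (hg19), and no coordinate of these windows was used to count them.

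Library totals ran from 32403924 to 56773306 counts over all transcripts, and both extremes were treated RL libraries. Levels below are CPM, a transcript's count relative to its library's total on the usual fixed scale, adjusted by TMM factors over the 7 libraries. The B-cell markers CD79A, CD79B, MS4A1 and PAX5 were present in every library, as were the MCL genes CCND1 and SOX11. CD5, another MCL marker, stood at 14.8 to 18.2 CPM in RL libraries and at 0.101 to 0.283 CPM in JeKo-1 libraries. The 5 T-cell markers summed to at most 0.345 CPM in RL libraries and to at most 9.31 CPM in those of JeKo-1, where CD247 made up nearly all of it, and CD2 and CD3G were at 0 in each JeKo-1 library. The 4 myeloid markers summed to at most 2.89 CPM and the 4 erythroid markers to at most 0.207 CPM in any library. Of the 4 epithelial markers, EPCAM stood at 75.6 to 82.0 CPM in RL libraries and at 0 in JeKo-1 libraries. In RL libraries KRT8 stood at 1.65 to 2.35 CPM and KRT18 at 2.98 to 3.65 CPM, and KRT19 was at 0 in every library. These are bulk libraries, so fewer cells with a transcript and less transcript per cell cannot be told apart.

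In the untreated cells, RL carried more of 5 members than JeKo-1 and JeKo-1 more of 2, by the comparison of untreated RL over untreated JeKo-1. That count of 7 of 9 stands beside 76.4% of the 15845 genes tested that passed an adjusted p of 0.05 between these lines (39.1% higher and 37.2% lower in RL). Every adjusted p given for these libraries comes from the quasi-likelihood test of edgeR, corrected by the Benjamini-Hochberg method over all transcripts tested. The single untreated JeKo-1 library is assumed to vary like the other groups, and the contrast compares these cell lines only. PLXNA1, a receptor that pairs with neuropilins for secreted semaphorins, had 178.3 and 166.2 CPM in untreated RL and 13.37 CPM in untreated JeKo-1, a log2 difference of 3.69 ± 0.11 (SE, adjusted p = 1.51e-16). PLXNB2, a receptor for class 4 semaphorins, differed by 2.81 ± 0.12 (2.89e-14), SEMA4A by 2.48 ± 0.18 (1.33e-10), SEMA7A by 2.34 ± 0.16 (4.62e-11) and PLXNC1 by 0.69 ± 0.12 (2.56e-05), all higher in RL. PLXND1 differed by -2.12 ± 0.15 (8.52e-11) and SEMA4D by -0.83 ± 0.08 (6.92e-09), both lower in RL. SEMA4B (-0.22 ± 0.13, adjusted p = 0.136) and SEMA4C (-0.27 ± 0.13, 0.0577) did not pass.

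Levels of different genes were set side by side as CPM per kilobase of transcript. In treated RL cells the order was PLXNA1 at 16.02, PLXNB2 at 5.21, SEMA4D at 4.27, SEMA4A at 3.51, SEMA4B at 2.99, PLXNC1 at 1.70, PLXND1 at 1.58, SEMA4C at 1.41 and SEMA7A at 0.723 CPM per kilobase. Of neighbours in that order, the library ranges of PLXNC1 and PLXND1 overlapped. Untreated RL cells gave PLXNA1 at 19.0, SEMA7A at 6.87, SEMA4D at 4.66, PLXNB2 at 4.07, SEMA4B at 2.60, SEMA4A at 2.49, PLXNC1 at 2.34, SEMA4C at 1.76 and PLXND1 at 0.563 CPM per kilobase. There the ranges of SEMA4B overlapped those of SEMA4A. SEMA7A thus stood second of the 9 in untreated RL cells and last in treated RL cells, and PLXND1 stood last in untreated RL cells.

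In treated JeKo-1 cells the order was SEMA4D at 10.2, SEMA4B at 2.87, SEMA4C at 2.68, PLXND1 at 2.23, PLXNC1 at 1.84, PLXNA1 at 1.14, PLXNB2 at 0.386, SEMA4A at 0.214 and SEMA7A at 0.136 CPM per kilobase. SEMA4B overlapped SEMA4C in its library range. The untreated JeKo-1 library gave SEMA4D at 8.26, SEMA4B at 3.02, PLXND1 at 2.44, SEMA4C at 2.12, PLXNA1 at 1.48, PLXNC1 at 1.45, SEMA7A at 1.36, PLXNB2 at 0.581 and SEMA4A at 0.446 CPM per kilobase, with no replicate to give a spread. SEMA4D, the B- and T-cell semaphorin also called CD100, led both JeKo-1 groups, while PLXNA1 led both RL groups. Lengths are those of the GENCODE 29 transcripts paired with the RefSeq identifiers, and the choice of transcript changes these values in proportion to its length.

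**Figure D1:**
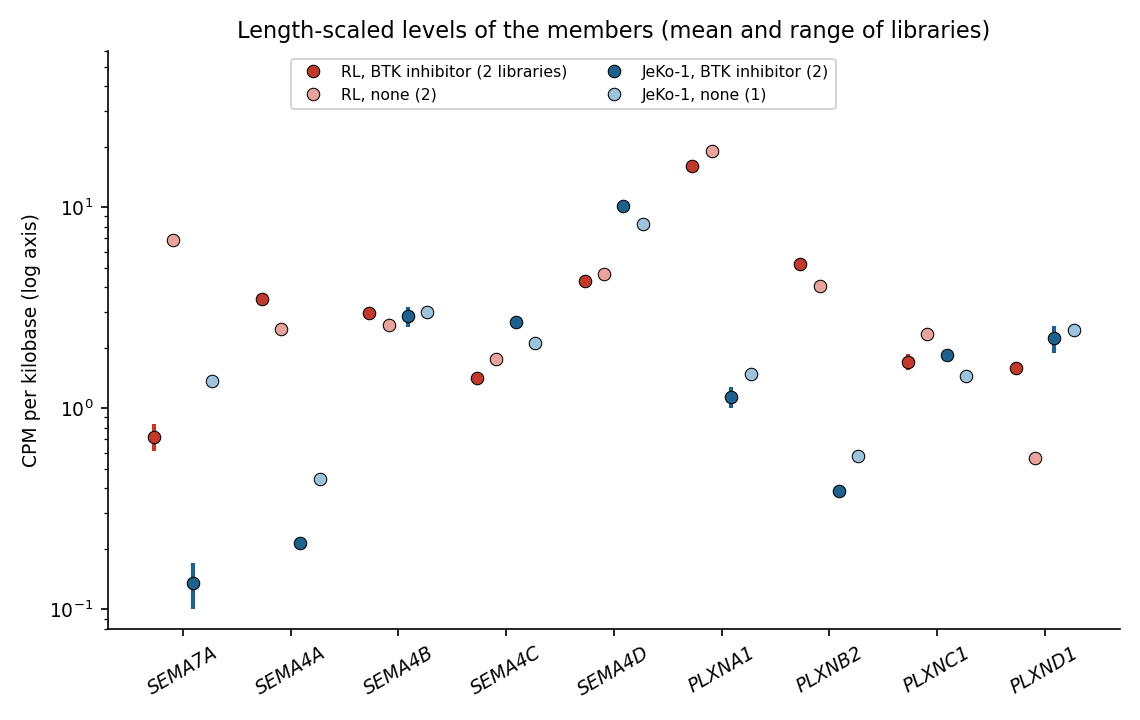
Level of each member in CPM per kilobase (log axis) in the 4 groups, with points for group means and lines for the range of libraries. PLXNA1 is highest in RL and SEMA4D in JeKo-1, and treated cells stand below untreated cells for SEMA7A in both lines.

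SEMA7A (transcript NM_001146030) encodes a semaphorin held in the membrane by a lipid anchor, which binds PLXNC1 and beta-1 integrins and carries the John Milton Hagen blood group antigen. Its read counts were 54 and 129 in treated RL cells and 780 and 791 in untreated RL cells, which is 1.56 and 2.11 CPM against 17.9 and 16.9 CPM. JeKo-1 cells gave 9 and 16 counts with inhibitor and 136 without, or 0.255 and 0.434 CPM against 3.45 CPM. Treated libraries lay below untreated ones in both lines.

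SEMA7A fell 9.14-fold in RL, a log2 change of -3.19 ± 0.12 (SE, adjusted p = 1.51e-08). In JeKo-1 it fell 9.95-fold, a log2 change of -3.31 ± 0.31 (adjusted p = 1.65e-25). The JeKo-1 counts are low: 9 counts have an exact Poisson 95% interval of 4.12 to 17.1 and 16 counts one of 9.15 to 26.0, which cover counting error only. Leaving out 1 library at a time gave -3.47 to -3.05 in RL, and leaving out either treated JeKo-1 library gave -3.74 to -2.98, each still past the threshold. Values without a JeKo-1 library come from the 4-group model of the other 6 libraries, since its own fit would have no residual degrees of freedom. SEMA7A was the only member that DESeq2 also called in JeKo-1. The JeKo-1 fit had 1 untreated library and 1 spread shared by all transcripts. Its smaller adjusted p thus does not mark stronger evidence than that in RL. The difference between the lines' changes was 0.11 ± 0.33 (RL minus JeKo-1, adjusted p = 0.887), which does not show that the changes are equal. The other SEMA7A transcripts in the tables had nearly the same counts, so the reads do not tell them apart.

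The other semaphorins of the set belong to class 4, membrane proteins that can be shed from the cell surface. SEMA4A, which in mice stimulates T cells and binds plexins of the B and D families, was 12.3 and 10.8 CPM in treated RL cells and 8.19 and 8.25 CPM in untreated RL cells. JeKo-1 cells had 0.735 and 0.677 CPM with inhibitor and 1.47 CPM without. It rose in RL by 0.49 ± 0.09 on the log2 scale (adjusted p = 0.00173) and fell in JeKo-1, with a log2 change of -1.06 ± 0.33 (SE, adjusted p = 0.00704). The JeKo-1 values rest on 26 and 25 counts in treated cells and 58 in untreated cells.

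SEMA4C, a ligand of PLXNB2, had 4.74 and 5.25 CPM in treated RL cells against 6.15 and 6.32 CPM in untreated RL cells. In JeKo-1 it had 9.47 and 9.51 CPM with inhibitor and 7.51 CPM without. The RL change of -0.30 ± 0.10 passed narrowly (adjusted p = 0.0448), and it did not pass by DESeq2 (0.234), by limma-voom (0.0509) or without untreated RL library 1, untreated RL library 2 or treated RL library 1 (0.0812, 0.164 and 0.124). The JeKo-1 change of 0.33 ± 0.14 missed the threshold (adjusted p = 0.0535), though it passed with DESeq2's size factors in edgeR (0.0461).

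SEMA4D binds PLXNB1 and, on lymphocytes, CD72. It had 20.5 and 20.7 CPM in treated RL cells and 23.4 and 21.5 CPM in untreated RL cells, a log2 change of -0.12 ± 0.07 that did not pass (adjusted p = 0.215). Its JeKo-1 levels were 47.8 and 50.3 CPM with inhibitor against 39.8 CPM without, and it rose by 0.29 ± 0.08 (adjusted p = 0.000865). A second SEMA4D transcript, NM_001142287, has 67.9% of the reads of the first. It gave -0.16 in RL (adjusted p = 0.138) and 0.23 in JeKo-1 (adjusted p = 0.0285), the same directions as the first.

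SEMA4B, a less studied class 4 member, did not pass in either line. Its levels were 11.5 and 11.1 CPM in treated RL cells and 10.5 and 9.17 CPM in untreated RL cells, a log2 change of 0.20 ± 0.09 (adjusted p = 0.117). JeKo-1 had 9.64 and 12.1 CPM with inhibitor and 11.4 CPM without, so its groups overlapped and the change was -0.08 ± 0.12 (adjusted p = 0.693). Without treated JeKo-1 library 1 that value was 0.09.

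**Figure D2:**
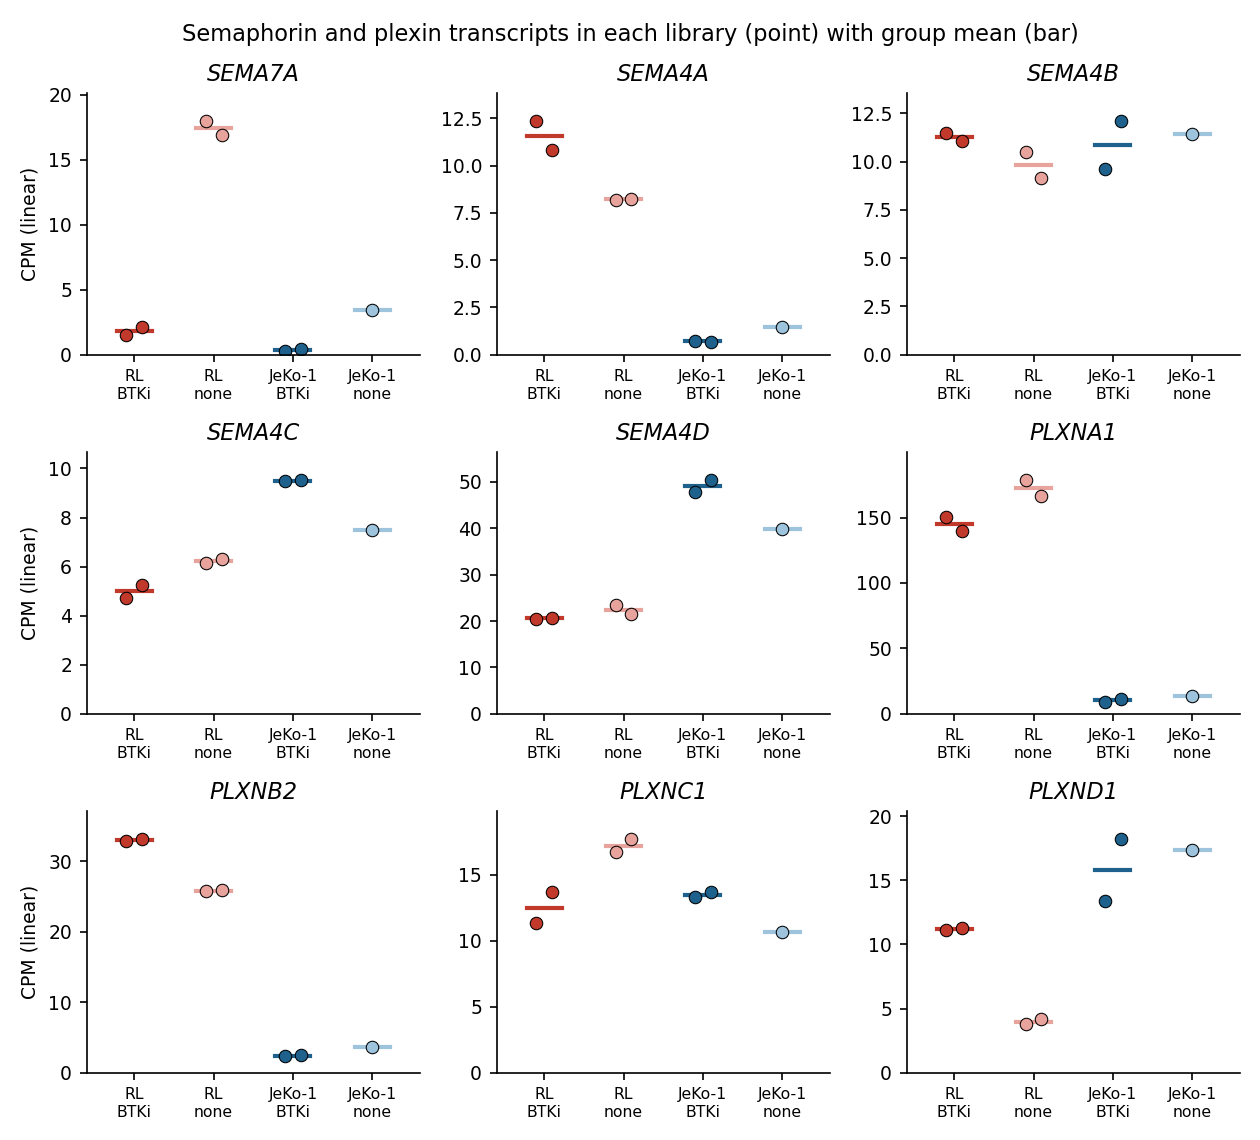
CPM (linear axis from 0) of the 9 transcripts in each library, with bars for group means, for RL with inhibitor, RL with none, JeKo-1 with inhibitor and JeKo-1 with none. SEMA7A points of treated cells sit at 1.56 and 2.11 CPM in RL against 17.9 and 16.9 CPM untreated, and PLXND1 points at 11.1 and 11.3 CPM against 3.80 and 4.19 CPM.

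Among the plexins, PLXND1, the receptor for SEMA3E, also has a role in germinal centre B-cell responses in mice. Its counts were 385 and 691 in treated RL cells and 165 and 196 in untreated RL cells, or 11.1 and 11.3 CPM against 3.80 and 4.19 CPM. It rose 2.82-fold in RL, a log2 change of 1.495 ± 0.10 (adjusted p = 8.21e-07). JeKo-1 had 13.4 and 18.2 CPM with inhibitor and 17.3 CPM without, so its groups overlapped and the change of -0.14 ± 0.10 did not pass (adjusted p = 0.346). Without treated library 2 the JeKo-1 change was -0.36 and passed (adjusted p = 0.0483), and without treated library 1 it was 0.08. The SEMA3E transcript NM_001178129 had 0 counts in all 7 libraries. A floor of 3 counts, set by convention for a count of 0, is 0.0491 to 0.0866 CPM.

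PLXNB2 had 32.9 and 33.1 CPM in treated RL cells and 25.7 and 25.9 CPM in untreated RL cells, and rose by 0.36 ± 0.06 (adjusted p = 0.000428). In JeKo-1 it had 2.38 and 2.52 CPM with inhibitor and 3.68 CPM without, a log2 change of -0.59 ± 0.20 (adjusted p = 0.0144). PLXNC1, a receptor of SEMA7A, had 11.4 and 13.7 CPM in treated RL cells against 16.7 and 17.7 CPM in untreated RL cells, a log2 change of -0.44 ± 0.09 (SE, adjusted p = 0.00373). With inhibitor JeKo-1 had 13.3 and 13.7 CPM, against 10.7 CPM without, and PLXNC1 rose by 0.33 ± 0.12 (adjusted p = 0.023). In the 4-group model of all 7 libraries the adjusted p of that rise was 0.0483. Without either treated JeKo-1 library that model no longer called it, with changes of 0.36 and 0.33. PLXNC1 exons overlap genes on the opposite strand over 2.25% (AC073655.2) and 1.79% (CEP83) of their bases, and reads of the pair cannot be told apart in unstranded libraries.

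PLXNA1 had 150.7 and 139.7 CPM in treated RL cells and 178.3 and 166.2 CPM in untreated RL cells, a log2 change of -0.24 ± 0.05 (SE, adjusted p = 0.00559). Without untreated RL library 1 the adjusted p was 0.0586. JeKo-1 had 9.05 and 11.6 CPM with inhibitor and 13.4 CPM without, a log2 change of -0.38 ± 0.12 (SE, adjusted p = 0.00778). Without treated JeKo-1 library 1, the one with 9.05 CPM, the change was smaller, at -0.19.

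**Figure D3:**
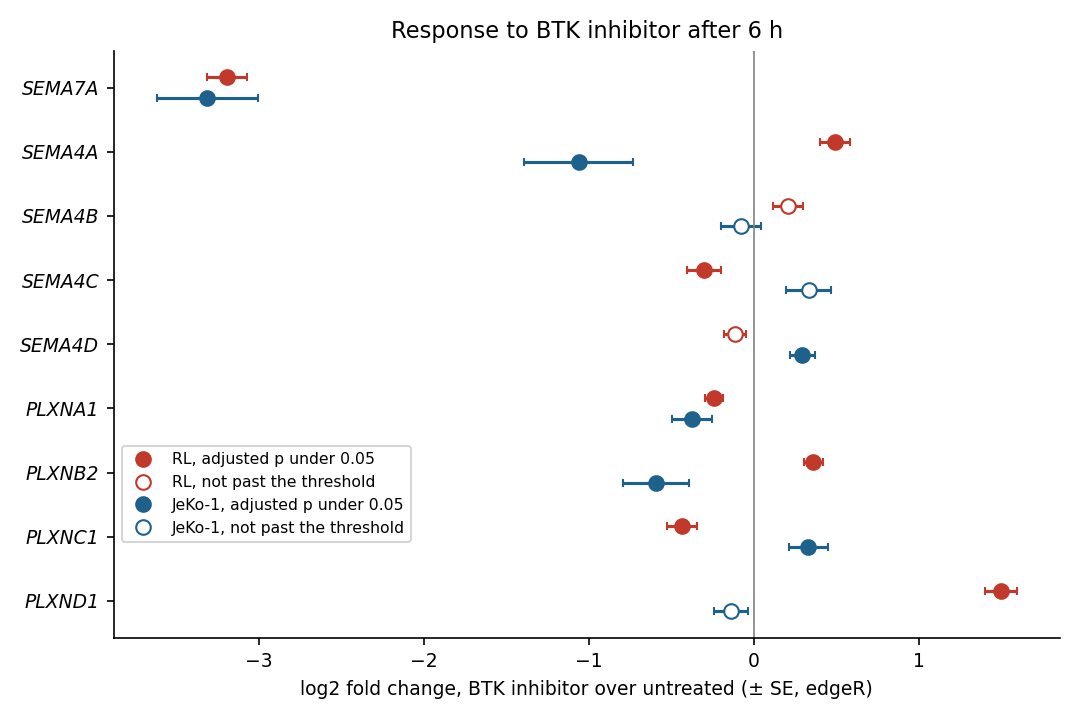
Log2 fold change of each member with inhibitor over no agent (horizontal axis, bars are SE from edgeR) in RL and JeKo-1, with filled points past an adjusted p of 0.05. SEMA7A lies at -3.19 and -3.31. The other members except PLXNA1 lie on opposite sides of 0 in the 2 lines, of which SEMA4A, PLXNB2 and PLXNC1 have filled points in both. SEMA4B, SEMA4C, SEMA4D and PLXND1 have an open point in RL, in JeKo-1 or in both. The share of all genes on opposite sides was not counted.

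Counted together, 7 of the 9 members passed in RL, 3 higher and 4 lower, where 30.4% of the 14932 genes tested passed (15.1% higher, 15.3% lower). In JeKo-1, 6 of 9 passed, 2 higher and 4 lower, where 28.3% of 14050 genes passed (13.4% higher, 14.9% lower). The median log2 change over the members was -0.12 in RL and -0.14 in JeKo-1, against 0.01 and -0.01 over all genes tested. The median size of change, without its sign, was 0.36 for the members and 0.17 for all genes in RL, and 0.33 and 0.19 in JeKo-1. All 9 passed the filter on low counts. The members were chosen with these values known, so their counts describe the set and no list was tested. The JeKo-1 fit has 1 residual degree of freedom and found no variation in spread between transcripts, so its p-values rest on 1 shared spread. By DESeq2, 1 member (SEMA7A) passed in JeKo-1.

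The response differed between the lines for 6 of the 9 members, by a test of the difference itself (RL minus JeKo-1), where 17.8% of the 15845 genes tested passed (8.95% higher, 8.82% lower). PLXND1 had the largest difference of the members, 1.62 ± 0.19 on the log2 scale (adjusted p = 3.65e-06), followed by SEMA4A at 1.54 ± 0.28 (0.000644) and PLXNB2 at 0.94 ± 0.17 (0.00043). PLXNC1 differed by -0.78 ± 0.15 (0.000943), SEMA4C by -0.65 ± 0.16 (0.00812) and SEMA4D by -0.42 ± 0.10 (0.00551). SEMA4B (0.27 ± 0.17, adjusted p = 0.317) and PLXNA1 (0.12 ± 0.14, 0.607) did not pass, nor did SEMA7A. By edgeR, SEMA4A, PLXNB2 and PLXNC1 each passed in both lines and in opposite directions. How many of all genes tested did so was not counted. The JeKo-1 changes of these members did not pass by DESeq2 (adjusted p = 0.447, 0.487 and 0.369), and that of PLXNC1 did not pass without either treated library. The SEMA4C difference did not pass by DESeq2 (adjusted p = 0.0612).

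Other genes of the pathway were taken from 5 lists drawn up with earlier results known. Their JeKo-1 calls come from the same fit, with 1 untreated library, and results of the alternative fits are not given for them. Of 15 other semaphorins, 9 were tested in RL and 7 in JeKo-1. In RL, SEMA3F (0.57 ± 0.11, adjusted p = 0.00182) and SEMA6C (0.37 ± 0.12, 0.031) rose, and SEMA3C (-0.46 ± 0.06, 7.02e-05) and SEMA6A (-0.40 ± 0.13, 0.0361) fell. In JeKo-1, SEMA6B (-1.78 ± 0.67, adjusted p = 0.0292) and SEMA6C (-1.14 ± 0.30, 0.00105) fell, SEMA6B on 3 and 7 counts in treated cells and 19 in untreated cells. SEMA6C had 24 and 36 counts in treated JeKo-1 cells and 72 in untreated JeKo-1 cells. SEMA6C differed between the lines by 1.497 ± 0.29 (0.00101) and SEMA3F by 0.82 ± 0.26 (0.0328).

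Of the other plexins, 4 were tested in RL and 2 in JeKo-1. PLXNB1, the main SEMA4D receptor outside the immune system, was 53.2 and 47.8 CPM in treated RL cells against 36.8 and 36.6 CPM in untreated RL cells. In JeKo-1 it had 14.6 and 13.7 CPM with inhibitor and 9.31 CPM without. It rose in both lines, by 0.46 ± 0.06 in RL (adjusted p = 0.00012) and 0.60 ± 0.12 in JeKo-1 (9.37e-06). PLXNA3 fell in JeKo-1 (-0.54 ± 0.22, adjusted p = 0.0431), on 80 and 73 counts in treated cells and 121 in untreated cells.

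Among 11 coreceptors and other semaphorin receptors, 7 were tested in RL and 6 in JeKo-1. CD72, an inhibitory B-cell receptor that binds SEMA4D, had 17.0 and 17.9 CPM in treated RL cells and 23.7 and 24.2 CPM in untreated RL cells, a log2 change of -0.45 ± 0.07 (SE, adjusted p = 0.000287). JeKo-1 had 36.9 and 37.7 CPM with inhibitor and 138.2 CPM without, a log2 change of -1.90 ± 0.07 (SE, adjusted p = 3e-170), and the lines differed by 1.44 ± 0.09 (2.44e-09). NRP2, a coreceptor for secreted semaphorins, fell in RL (-1.38 ± 0.31, adjusted p = 0.00522) and in JeKo-1 (-0.93 ± 0.13, 1.17e-11). The RL fall of NRP2 rests on 11 and 16 counts in treated cells and 30 and 37 in untreated cells. ITGB1, the beta-1 integrin subunit that SEMA7A binds, rose in RL (0.34 ± 0.05, adjusted p = 0.000206) and in JeKo-1 (0.27 ± 0.07, 0.000875). ERBB2, a partner of B-type plexins, fell in JeKo-1 (-0.48 ± 0.13, adjusted p = 0.00115). NRP1 had 0 counts in all 7 libraries.

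Of 35 plexin effectors, 31 were tested in RL, where 7 rose and 3 fell, and 29 in JeKo-1, where 2 rose and 11 fell. That is 32.3% called in RL and 44.8% in JeKo-1, beside 30.4% and 28.3% of all genes. ARHGEF12, a guanine exchange factor for RhoA at B-type plexins, fell in RL (-0.30 ± 0.05, adjusted p = 0.000493) and in JeKo-1 (-0.52 ± 0.09, 1.41e-08). MICAL3 also fell in RL (-0.27 ± 0.05, adjusted p = 0.00301) and in JeKo-1 (-0.41 ± 0.09, 1.14e-05). DPYSL5, of the collapsin response mediator family, rose in RL (0.38 ± 0.07, adjusted p = 0.00115) and in JeKo-1 (1.43 ± 0.14, 5.25e-22). LIMK1, which phosphorylates cofilin, fell in JeKo-1 (-0.61 ± 0.10, adjusted p = 4.22e-08), and its RL value of 0.13 ± 0.05 did not pass (0.0763). Of 4 shedding and processing proteases, FURIN rose in RL (0.35 ± 0.08, adjusted p = 0.0072) and in JeKo-1 (0.40 ± 0.12, 0.00411), ADAM10 in RL (0.16 ± 0.06, 0.0469) and ADAM17 in JeKo-1 (0.31 ± 0.07, 5.48e-05).

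**Figure D4:**
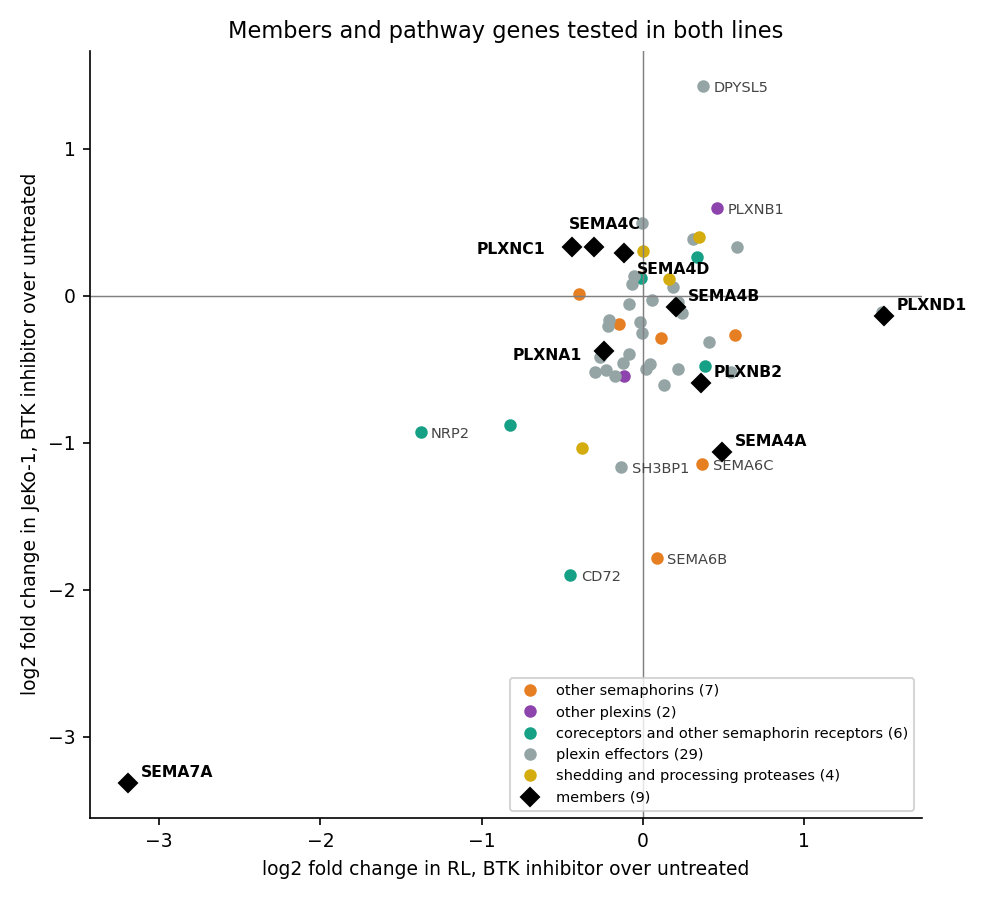
Log2 fold change with inhibitor over no agent in RL (horizontal) against JeKo-1 (vertical) for the members (diamonds) and for genes of the 5 lists tested in both lines (circles). SEMA7A stands at the lower left, CD72 and SEMA6C lie low in JeKo-1, and PLXND1 stands at the right near 0 in JeKo-1.

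The genes most like each member were ranked by the root mean square difference of centred log2(CPM + 1) values over the 7 libraries, among 10019 genes of at least 5 CPM on average. For SEMA7A they were CCL3 at 0.205, CD83 at 0.421 and EMP3 at 0.629. CCL3 had 1.59 and 1.39 CPM in treated RL cells and 14.6 and 15.8 CPM in untreated RL cells, and 0.311 and 0.623 CPM with inhibitor and 2.46 CPM without in JeKo-1. For PLXND1 they were TSC22D3 at 0.151, ABCG1 at 0.194 and CHST2 at 0.236, and for PLXNA1 ECE1 at 0.067, JAK3 at 0.079 and IFIT5 at 0.1. SEMA4A was closest to RASSF5 (0.056), PLXNB2 to NEO1 (0.092) and PLXNC1 to PPIP5K2 (0.089). SEMA4B, SEMA4C and SEMA4D, whose changes were small, were closest to FAM89B (0.035), RFC3 (0.054) and C11orf46 (0.047). The ranking describes 7 libraries of 2 lines, which share line and treatment differences. The added 1 shrinks differences among values under 1 CPM. IFIT5 had such values in JeKo-1, 0.226 and 0.217 CPM with inhibitor and 0.584 CPM without.

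In the authors' deposited table for RL, the log2 ratio of SEMA7A was -3.17 with a false discovery rate of 1.34e-95, and that of PLXND1 was 1.499 with 6.7e-27. SEMA4C had a false discovery rate of 0.162 in the authors' deposited table. The authors' deposited table for JeKo-1 gives log2 ratios of -3.15 for SEMA7A, -0.88 for SEMA4A, 0.42 for SEMA4C and -0.12 for PLXND1 with no p-value, in a column headed ALKi.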

How the data were processed

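RNA-seq was analysed from 7 libraries. The authors deposited raw read counts per RefSeq transcript for every library. They also deposited columns headed FRKM, which hold log2 values of quantile-normalised reads, log2 ratios, and p-values whose test is not stated, per the file headers and values. A signed fold score for selected transcripts was deposited as well, in a joint table of 2056 genes. The submitters' processing notes name CASAVA 1.8, BWA, Partek 6.6 and hg19/GRCh37, without saying what each did. Counts are not per gene: a read can count for several transcripts.

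Counts were tested with edgeR 4.0.16 (TMM, filterByExpr, quasi-likelihood test, Benjamini-Hochberg over all transcripts tested, call at 0.05) in R 4.3.3. Each line was fitted on its own (2 residual degrees of freedom in RL, 1 in JeKo-1), and the line contrasts in a 4-group model of 7 libraries (3). Gene counts use 1 transcript per gene. Standard errors are the log2 change divided by the root of F. The analysis was tested on simulated data. Alternatives were DESeq2 1.42.0, limma-voom (limma 3.58.1), DESeq2 size factors, other filters on low counts, a 4-group fit, a replicate block in RL and leaving out each library. Members, lists and tests were chosen with earlier results of these data known. All members, and every listed gene called in any contrast, could be named. 1 marker gene is not reported here. Promoter windows are RefSeq's on GRCh38.p14.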

Additional observations from a re-analysis of the deposited data

Results flagged for a closer look

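The inhibitor's effect differed between RL and JeKo-1 for 6 members by a test of the difference itself (edgeR, RL minus JeKo-1, log2). Of the 15845 genes tested, 17.8% passed that test. The difference was 1.621 for PLXND1, 1.542 for SEMA4A and 0.941 for PLXNB2, and it was -0.646 for SEMA4C, -0.423 for SEMA4D and -0.781 for PLXNC1. The SEMA4C difference did not pass by DESeq2 (adjusted p = 0.0612). Of the 6 members, SEMA4A, PLXNB2 and PLXNC1 passed in both lines with opposite signs by edgeR, though not in JeKo-1 by DESeq2. How many of all genes tested did so was not counted. JeKo-1 has 1 untreated library, so each difference rests on it, and whether that library stands apart was not tested.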

How the results depend on the processing

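limma-voom called nearly as many genes as edgeR (4536 in RL, 3921 in JeKo-1, 2733 for the difference and 12092 between untreated lines, where edgeR called 12101). The last count was 8236 at a minimum of 5 CPM, which tests fewer genes, and 10504 by DESeq2. DESeq2 called 2871 genes in RL against 4543 by edgeR, 1553 in JeKo-1 against 3970 (892 higher and 661 lower, against 1878 and 2092), and 1873 for the difference against 2815 (745 and 1128, against 1418 and 1397). Leaving out 1 library gave 3345 to 4326 genes in RL, 2397 to 2931 in JeKo-1 (treated libraries only, in the 4-group model, since the single untreated one cannot be left out) and 1947 to 2872 for the difference. With all 7 libraries, the 4-group model called 3521 genes in JeKo-1. In JeKo-1, 1 member was called by DESeq2, and 2 at a minimum of 5 CPM, against 6. That minimum left SEMA7A, SEMA4A and PLXNB2 untested, and PLXNA1 was tested but lost its call (-0.382, adjusted p = 0.05). Leaving out 1 library left 5 to 7 members called in RL, 4 to 6 in JeKo-1, 6 for the difference and 7 between untreated lines. DESeq2's adjusted p in JeKo-1 was 0.447 for SEMA4A, 0.076 for SEMA4D, 0.393 for PLXNA1, 0.487 for PLXNB2 and 0.369 for PLXNC1, and the cause was not tested.

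Signs turned when a library was left out for changes that did not pass with all libraries: JeKo-1 SEMA4B ranged from -0.232 to 0.091 and PLXND1 from -0.359 to 0.078, and the difference ranged from -0.216 to 0.544 for SEMA7A and from -0.048 to 0.311 for PLXNA1. No sign turned in RL or between the untreated lines. Same-numbered RL libraries did not deviate together from their group means (correlation -0.0543 over 10028 genes). A correlation this small cannot tell whether the numbers mark a shared culture or day, and the labels do not say. With the replicate block RL gave 4416 genes and 7 members called, and it changed no call of a member. No paired analysis was possible in JeKo-1 because it has 1 untreated library. Members under 100 counts in JeKo-1 (SEMA7A, SEMA4A, PLXNB2) are the least precise.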

Other observations

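Several pathway genes were at or near 0 in JeKo-1 and present in RL. SEMA3C had 1254 and 2376 counts in treated RL cells and 2283 and 2400 in untreated RL cells, and 0 counts in all 3 JeKo-1 libraries. PLXNA2 had 533 and 880 counts in treated RL cells and 648 and 764 in untreated RL cells, against 0 and 0 in treated JeKo-1 cells and 1 in untreated JeKo-1 cells. CRMP1, a collapsin response mediator, had 510 and 901 counts in treated RL cells and 473 and 501 in untreated RL cells, against 0 and 1 in treated JeKo-1 cells and 0 in untreated JeKo-1 cells. NRP2 ran the other way, with 0.318 and 0.262 CPM in treated RL cells and 0.690 and 0.791 CPM in untreated RL cells, against 6.36 and 7.56 CPM in treated JeKo-1 cells and 13.2 CPM in untreated JeKo-1 cells.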
